A study of Mus musculus with 34 samples.

Results

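The enzymes described here make leukotrienes and prostaglandins, the lipid mediators derived from arachidonic acid. They are 8 named genes, Alox5, Alox5ap, Lta4h, Ltc4s, Ptgs1, Ptgs2, Ptges and Hpgds, of which 7 had a probe set annotated to that gene alone, among 22180 genes tested. Ptgs1 had none and was not analysed here. Where a gene had several probe sets, the one with the largest mean signal was used. Alox5 was picked because it was high in CD8- dendritic cells lacking Mst1 and Mst2, so its values in that comparison are given as a description without a test. The other members were added as the rest of the pathway, and in the same comparison they are described in the same way.

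The arrays held RNA of dendritic cells (DCs), the cells that take up antigen and present it to T cells, sorted from the spleens of C57BL/6 mice. Mst1/2-KO mice lack both Hippo pathway kinases Mst1 (gene Stk4) and Mst2 (gene Stk3). They were set against WT mice in 3 preparations. Sorted CD8+ DCs had 4 Mst1/2-KO and 4 WT arrays, sorted CD8- DCs had 4 and 4, and total DCs had 3 and 4; no stimulus is named for these 23 arrays. The remaining experiments used total DCs of Rag1-KO mice, which have no mature B or T cells. Experiment 1 compared 3 arrays labelled Rag1-KO p38-KO with 4 of Rag1-KO DCs, all stimulated with anti-CD40, an antibody to a receptor through which T cells activate DCs. Experiment 2 held 2 Rag1-KO arrays and 1 WT array stimulated with anti-CD40 and 1 Rag1-KO array without stimulation. The cell type in which a deleted gene was removed, the age of the mice and whether each array came from a separate mouse are not stated in the labels, so p-values measure the spread between these arrays, which may be partly technical. CD8+ and CD8- are the main classes of conventional DC in mouse spleen.

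Arachidonic acid is freed from membrane lipids by phospholipase A2 enzymes. The 5-lipoxygenase Alox5, helped by its membrane partner Alox5ap (FLAP), turns it into leukotriene A4; Lta4h then makes leukotriene B4, a chemoattractant, while Ltc4s joins leukotriene A4 to glutathione to start the cysteinyl leukotrienes. The cyclooxygenases Ptgs1 (COX-1) and the inducible Ptgs2 (COX-2) start the other branch, in which Ptges makes prostaglandin E2 and Hpgds makes prostaglandin D2. Both branches act on DC migration and on the cytokines that DCs release.

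The promoters of the 3 members that differed most between groups are printed to show what stands at their starts. Each sequence runs 5′ to 3′ on the strand of the gene, from 250 bases before to 50 bases after the annotated start, from RefSeq on GRCm38.p6, and capitals mark matches to 5 short motifs searched on both strands. The Alox5 window is chr6:116461129-116461428 on the minus strand, the Ptgs2 window chr1:150099781-150100080 on the plus strand, and the Hpgds window chr6:65144681-65144980 on the minus strand.
Alox5: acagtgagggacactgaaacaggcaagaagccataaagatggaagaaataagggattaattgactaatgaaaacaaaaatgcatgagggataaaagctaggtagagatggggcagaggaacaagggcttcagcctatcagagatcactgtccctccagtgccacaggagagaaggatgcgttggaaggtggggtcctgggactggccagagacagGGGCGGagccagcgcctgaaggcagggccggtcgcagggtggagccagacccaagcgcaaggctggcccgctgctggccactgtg
Ptgs2: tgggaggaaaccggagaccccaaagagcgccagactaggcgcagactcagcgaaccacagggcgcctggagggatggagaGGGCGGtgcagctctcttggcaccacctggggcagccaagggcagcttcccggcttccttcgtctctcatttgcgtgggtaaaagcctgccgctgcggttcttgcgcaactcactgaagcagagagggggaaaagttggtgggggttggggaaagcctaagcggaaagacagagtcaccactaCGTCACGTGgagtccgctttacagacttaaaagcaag
Hpgds: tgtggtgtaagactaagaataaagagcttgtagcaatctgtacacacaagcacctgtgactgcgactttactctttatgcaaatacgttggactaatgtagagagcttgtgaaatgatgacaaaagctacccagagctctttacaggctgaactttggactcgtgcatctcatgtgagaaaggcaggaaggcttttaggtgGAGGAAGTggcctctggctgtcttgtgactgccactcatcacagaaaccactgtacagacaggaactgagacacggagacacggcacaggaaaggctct
The capitals in Alox5 are a GC box (GGGCGG), the kind of site bound by Sp1, whose first base lies 35 bases upstream of the start. In Ptgs2 they are a GC box 170 bases upstream and, downstream of the start, a CRE half-site (TGACG, here read on the other strand as CGTCA) from base 14 that overlaps an E-box (CACGTG) from base 17. In Hpgds they are a PU.1-type site (GAGGAAGT) 49 bases upstream. Promoters of 7 members were searched, with Ptgs1 among them and without Alox5ap, which had no entry. A GC box was found in 3 of these 7 (Alox5, Ptgs2 and Ptges) and in 35.7% of all 32851 promoters. TGACG and CACGTG were each found in 1 of the 7 (Ptgs2), and in 20.8% and 7.15% of promoters. GAGGAAGT was found in 2 of the 7 (Hpgds and Ptgs1) and in 3.2% of promoters. GGAATG, a TEAD-type motif read by the transcription factors of the Hippo pathway, was found in Ptges alone among the 7 and in 14.7% of promoters. These matches describe letters and do not show that a factor was bound. The Alox5, Ptgs2 and Hpgds windows held no capitals in common beyond the GC box shared by Alox5 and Ptgs2.

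All values are log2 signals, and they are comparable between arrays of one experiment label only: the sorted cells, the total DCs, experiment 1 and experiment 2 each form one such set. No level was set against that of another gene. The labels held in the sorted cells, where the array signal of Cd8a lay between 11.93 and 12.25 in CD8+ DCs and between 6.42 and 8.01 in CD8- DCs, and the DC gene Itgax (CD11c) lay between 9.97 and 10.65. Stk4 averaged 7.47 ± 0.21 in Mst1/2-KO and 8.33 ± 0.09 in WT CD8+ DCs (SD, n = 4 each), 7.55 ± 0.13 and 8.32 ± 0.13 in CD8- DCs, and 7.41 ± 0.09 in 3 Mst1/2-KO and 8.51 ± 0.06 in 4 WT total DC arrays. Mapk14, the gene of p38α, averaged 8.47 ± 0.08 in the 3 arrays labelled p38-KO and 8.24 ± 0.26 in 4 Rag1-KO arrays, so its probe set did not show the deletion. Stk3 was not analysed here. In the sorted cells the mean of Xist and 3 Y-linked genes was lower in Mst1/2-KO than in WT arrays. It averaged 5.22 in Mst1/2-KO CD8- arrays (4.93 to 5.45), against 5.68 (5.58 to 5.74) in WT CD8- arrays, and 5.23 in Mst1/2-KO CD8+ arrays (4.87 to 5.55), against 5.53 (5.44 to 5.73) in WT CD8+ arrays. Xist and the Y-linked genes mark opposite sexes, so this mean is no measure of sex. The differences of the 4 genes ran from -0.81 to 0.02 in CD8- and from -0.56 to -0.01 in CD8+ DCs, with none past the threshold. In CD8- DCs 2 of the 4 did not overlap between the genotypes, beside 12% of all genes, and in CD8+ DCs all 4 overlapped. The part of these genes in the results below was not tested.

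**Figure D1:**
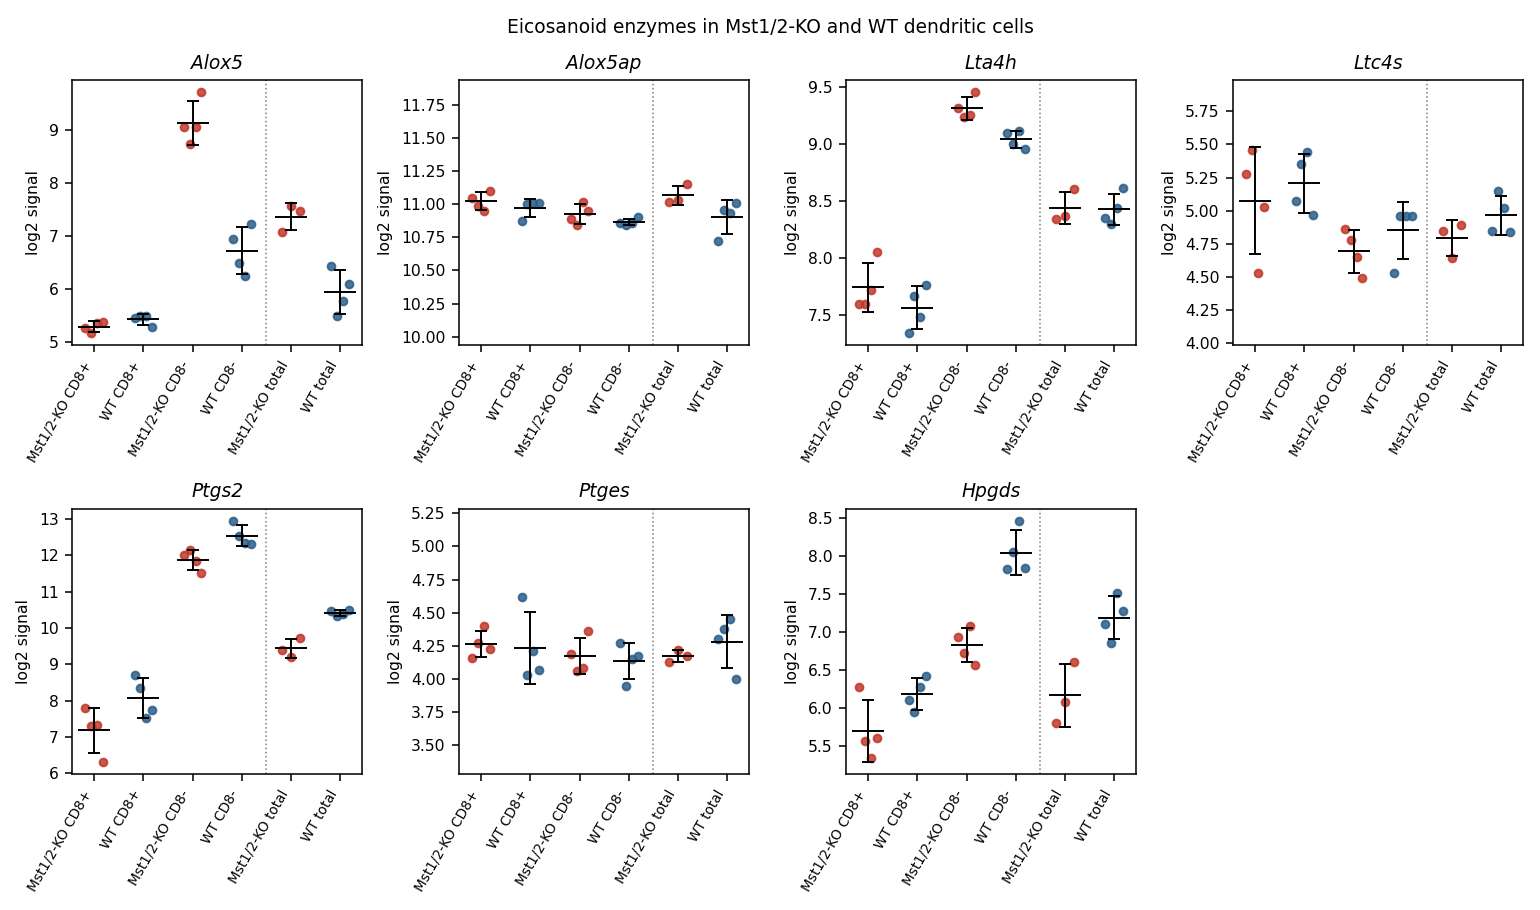
Log2 signal of the 7 measured enzymes (vertical axis, own scale per gene) in Mst1/2-KO (red) and WT (blue) dendritic cells, one point per array, with bars for mean and SD; the dotted line parts the sorted cells from the total DCs, whose levels are not comparable. Alox5 reached 8.73 to 9.71 in Mst1/2-KO CD8- DCs and stayed at 5.50 or below in all CD8+ arrays, while Ptgs2 lay between 11.52 and 12.95 in all CD8- arrays.

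Alox5 signal was higher in CD8- than in CD8+ DCs of both genotypes, and highest in the CD8- DCs without Mst1 and Mst2. Its array signal (probe set 17462128) was 9.06, 8.73, 9.05 and 9.71 in Mst1/2-KO CD8- DCs, against 6.95, 6.49, 6.25 and 7.22 in WT CD8- DCs. The groups did not overlap, and the lowest Mst1/2-KO array stood above the highest WT array. In CD8+ DCs it was 5.27, 5.17, 5.36 and 5.39 in Mst1/2-KO arrays, against 5.46, 5.50, 5.49 and 5.28 in WT arrays, where the groups overlapped. The order of the group means was Mst1/2-KO CD8- (9.14 ± 0.41), WT CD8- (6.73 ± 0.44), WT CD8+ (5.43 ± 0.11) and Mst1/2-KO CD8+ DCs (5.30 ± 0.10; SD, n = 4 each), and only the last 2 neighbours did not differ beyond their spread. The Mst1/2-KO minus WT difference was 2.41 ± 0.19 (SE) in CD8- DCs, or 5.32-fold. In CD8+ DCs it was -0.13 ± 0.19 (95% interval -0.54 to 0.27, adjusted p = 0.885). The effects differed by 2.54 ± 0.27 between the subsets, a description only because the choice of Alox5 used part of it.

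The total DC arrays, which that choice did not use, gave the same direction. Alox5 was 7.07, 7.56 and 7.48 in Mst1/2-KO total DCs, against 6.44, 5.49, 5.78 and 6.10 in WT total DCs. No array of one genotype fell within the range of the other. The difference was 1.42 ± 0.21, or 2.67-fold, with an adjusted p of 0.0176 (limma with Benjamini-Hochberg adjustment over all 22180 genes, as for every adjusted p here). The call was lost without Mst1/2-KO replicate 2 (difference 1.32, adjusted p = 0.111) or replicate 3 (1.36, adjusted p = 0.0620), and it held without WT replicate 1 (1.58, adjusted p = 0.0123), the array whose T cell markers averaged 6.23 against 4.51 to 4.90 in the other WT total arrays. Over 12 alternative settings its adjusted p lay between 0.00697 and 0.111. A second Alox5 probe set (17470031) ran with the first over the 16 sorted arrays (r = 0.982) and differed by 1.82 ± 0.20 between the genotypes in total DCs (adjusted p = 0.00484). On that second probe set the CD8- difference was 2.36 ± 0.28 and the CD8+ difference 0.07 ± 0.28. In bulk samples such as these, more RNA per cell and more cells of an expressing type cannot be told apart.

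Plasmacytoid DC markers moved with Alox5 in the sorted CD8- cells, and in total DCs they went both ways. The mean of 9 measured plasmacytoid markers was 8.08 in Mst1/2-KO CD8- DCs (7.83 to 8.22) and 7.26 in WT CD8- DCs (6.99 to 7.49). Of the 9 markers 4 lay past the threshold upward. Marker counts between genotypes in CD8- DCs are descriptions, beside 6.68% of all genes past the threshold in either direction. In total DCs 0.848% of all genes were called. Cox6a2, the marker with the largest difference, averaged 10.72 in Mst1/2-KO and 6.99 in WT CD8- DCs. Siglech, Bst2 and Tcf4 differed by 0.68, 1.06 and 1.08, while Klk1 and Ly6d did not lie past the threshold. Of the 9 differences 8 lay above 0 and the lowest was -0.09. Their median was 0.53, against 3.73 for Cox6a2, which weighs heavily in the list mean. In total DCs the same list averaged 6.96 over the Mst1/2-KO arrays (range 6.54 to 7.59) and 7.36 over the WT arrays (range 6.85 to 7.78), with none of 9 called; Cox6a2 averaged 8.41 in Mst1/2-KO and 7.46 in WT total DCs (adjusted p = 0.204). The differences of the 9 ran from -1.56 to 0.95 there. The part of these cells in either Alox5 difference was not tested. The markers that define the subsets moved as well. In CD8- DCs the mean of 10 CD8- DC markers was 8.22 (8.11 to 8.40) in Mst1/2-KO and 8.77 (8.71 to 8.83) in WT arrays, with 5 past the threshold downward (Cd4, Clec4a4, Dtx1, Esam and Tlr5) and 2 upward (Clec10a and Itgam). In total DCs it was 6.66 (6.40 to 6.89) in Mst1/2-KO and 7.26 (7.06 to 7.46) in WT arrays, with 2 of 10 differences above 0 and 1 (Cd4) called lower. The mean of 10 CD8+ DC markers was 8.23 (7.90 to 8.41) in Mst1/2-KO and 7.78 (7.52 to 8.09) in WT CD8- DCs, with 6 past the threshold upward and 1 (Ly75) downward. In total DCs it was 9.65 (9.62 to 9.68) in Mst1/2-KO and 9.34 (9.10 to 9.64) in WT arrays, with 9 of 10 differences above 0 and none called. Of 13 macrophage and monocyte markers 1 lay past the threshold upward and 1 downward in CD8- DCs (differences from -1.05 to 1.94). Their mean was 8.06 in Mst1/2-KO and 8.05 in WT CD8- DCs, and 1 was called lower in total DCs. Of 9 B cell markers 3 lay past the threshold downward in CD8- DCs, and none was called in total DCs. The part of all these markers in the results was not tested either.

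**Figure D2:**
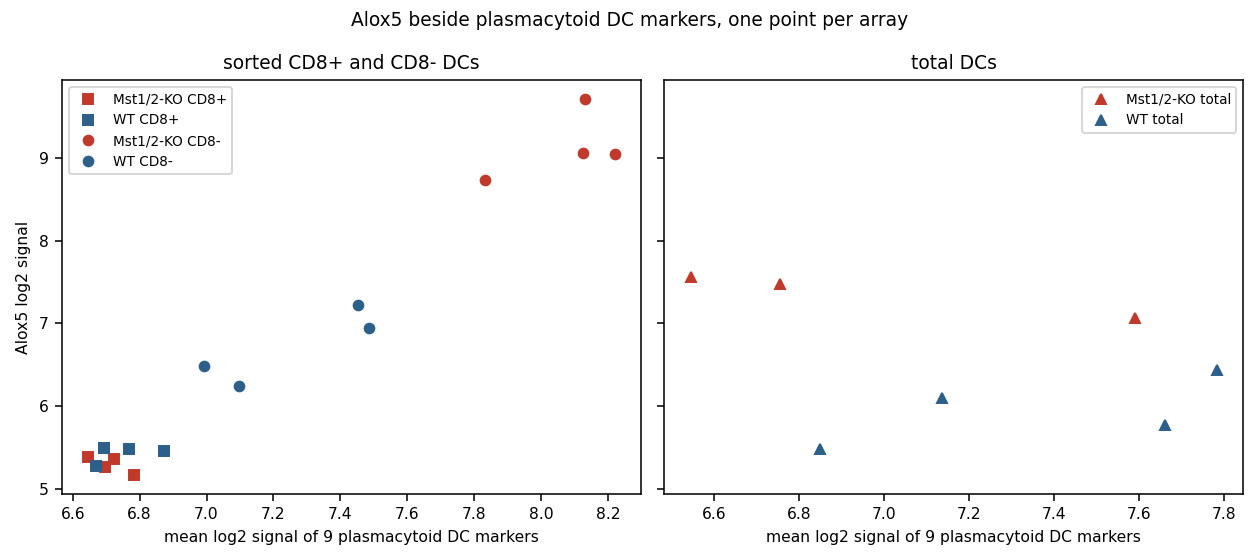
Alox5 log2 signal (vertical axis) against the mean log2 signal of 9 plasmacytoid DC markers (horizontal axis), one point per array, sorted cells on the left and total DCs on the right. In the sorted cells the 4 Mst1/2-KO CD8- arrays lie highest on both axes, and in total DCs the 3 Mst1/2-KO arrays lie above the 4 WT arrays in Alox5 at marker means of 6.54 to 7.59.

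Alox5ap, the membrane protein that hands arachidonic acid to Alox5, varied little within the sorted cells and within the total DCs. It was 10.89, 10.84, 11.02 and 10.95 in Mst1/2-KO CD8- DCs, against 10.86, 10.84, 10.86 and 10.90 in WT CD8- DCs, and it lay between 10.84 and 11.10 over the 16 sorted arrays and between 10.72 and 11.15 over the 7 total DC arrays. The Mst1/2-KO minus WT difference was 0.05 ± 0.07 in CD8+ DCs (95% interval -0.09 to 0.19, adjusted p = 0.863) and 0.06 ± 0.07 in CD8- DCs (interval -0.08 to 0.20). In total DCs it was 0.16 ± 0.10 (interval -0.06 to 0.39, adjusted p = 0.567), although the genotypes did not overlap there. The WT CD8+ minus CD8- difference was 0.10 ± 0.07 (adjusted p = 0.325).

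Lta4h, which turns leukotriene A4 into leukotriene B4, was lower in CD8+ than in CD8- DCs in both genotypes. It was 7.34, 7.67, 7.48 and 7.76 in WT CD8+ DCs, against 9.09, 9.0, 9.11 and 8.95 in WT CD8- DCs. All CD8+ arrays lay below all CD8- arrays, and the difference was -1.47 ± 0.11 (2.78-fold lower in CD8+, adjusted p = 9.12e-09). In Mst1/2-KO mice it was 7.60, 7.60, 7.72 and 8.05 in CD8+ DCs, against 9.31, 9.23, 9.25 and 9.45 in CD8- DCs, a difference of -1.57 ± 0.11 (adjusted p = 4.57e-09). Between genotypes the shifts were small. The Mst1/2-KO minus WT difference was 0.28 ± 0.11 in CD8- DCs, where the arrays did not overlap, 0.18 ± 0.11 in CD8+ DCs (adjusted p = 0.608) and 0.01 ± 0.11 in total DCs (interval -0.24 to 0.26, adjusted p = 0.977).

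Ltc4s, the synthase of leukotriene C4, moved little. Its signal was between 4.49 and 5.46 over the 16 sorted arrays and between 4.64 and 5.15 over the 7 total DC arrays. It was 5.07, 5.35, 5.44 and 4.97 in WT CD8+ DCs, against 4.53, 4.96, 4.96 and 4.96 in WT CD8- DCs, so that all CD8+ arrays lay above, by 0.36 ± 0.17 (adjusted p = 0.165). In the WT subsets the replicate numbers pair the arrays, and a model of these 8 arrays with the replicate as a block gave an adjusted p of 0.0423, the lowest of 15 alternatives (up to 0.396). In Mst1/2-KO subsets the difference was 0.38 ± 0.17 (adjusted p = 0.140), and without CD8+ replicate 3 it was 0.56 (adjusted p = 0.00998, against up to 0.385 under the other alternatives). No genotype difference passed: it was -0.13 ± 0.17 in CD8+ DCs (adjusted p = 0.858), -0.16 ± 0.17 in CD8- DCs and -0.17 ± 0.11 in total DCs (adjusted p = 0.587).

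In the prostaglandin branch, Ptgs2, the inducible cyclooxygenase, had the widest spread between the subsets of all 7 members. Its signal was 8.71, 8.35, 7.52 and 7.74 in WT CD8+ DCs, against 12.95, 12.52, 12.35 and 12.32 in WT CD8- DCs. The gap between the groups exceeded their ranges, and the difference was -4.45 ± 0.28, or 21.9-fold lower in CD8+ DCs (adjusted p = 1.47e-09). Mst1/2-KO DCs had the same gap, with 7.79, 7.31, 7.33 and 6.32 in CD8+ DCs, against 12.00, 12.15, 11.84 and 11.52 in CD8- DCs, a difference of -4.69 ± 0.28 (25.8-fold lower in CD8+, adjusted p = 8.62e-10). The order of group means was WT CD8- (12.53 ± 0.29), Mst1/2-KO CD8- (11.88 ± 0.27), WT CD8+ (8.08 ± 0.55) and Mst1/2-KO CD8+ DCs (7.19 ± 0.62; SD, n = 4 each). The last 2 overlapped between arrays, while the first 2 did not.

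Between genotypes, Ptgs2 was lower in Mst1/2-KO than in WT total DCs. Ptgs2 was 9.40, 9.19 and 9.72 in Mst1/2-KO total DCs, against 10.47, 10.32, 10.38 and 10.49 in WT total DCs. All Mst1/2-KO arrays lay below all WT arrays, and the difference was -0.98 ± 0.13 (1.97-fold lower, adjusted p = 0.00993). The call was lost without Mst1/2-KO replicate 1 (-0.96, adjusted p = 0.0617) or replicate 2 (-0.86, adjusted p = 0.0520), and it held without WT replicate 1 (-0.96, adjusted p = 0.0276). The 12 alternatives gave adjusted p-values of 0.00199 to 0.0617. In the sorted cells the difference was -0.66 ± 0.28 in CD8- DCs, a description, and -0.89 ± 0.28 in CD8+ DCs, where it did not pass (interval -1.48 to -0.30, adjusted p = 0.194). The CD8- DC marker mean was also lower and the CD8+ DC marker mean higher in these Mst1/2-KO total DC arrays, as given above.

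Hpgds, the haematopoietic prostaglandin D2 synthase, followed Ptgs2 in direction. It was 6.94, 6.73, 7.08 and 6.57 in Mst1/2-KO CD8- DCs, against 7.83, 8.06, 8.47 and 7.84 in WT CD8- DCs, a difference of -1.22 ± 0.19 (2.33-fold lower) without overlap. In CD8+ DCs it was 6.28, 5.56, 5.34 and 5.60 in Mst1/2-KO arrays, against 6.10, 5.94, 6.27 and 6.42 in WT arrays, where the groups overlapped and the difference was -0.49 ± 0.19 (interval -0.88 to -0.10, adjusted p = 0.330). Total DCs had 5.80, 6.08 and 6.61 in Mst1/2-KO arrays, against 7.11, 6.85, 7.52 and 7.28 in WT arrays. These groups did not overlap, yet the difference of -1.03 ± 0.20 (2.04-fold lower) did not pass, with an adjusted p of 0.0547. It was inside the threshold under other settings, at 0.0364 after quantile normalization, 0.0440 among genes above the median gene, 0.0340 with a trended and robust variance prior, and 0.0302 without Mst1/2-KO replicate 3 (difference -1.25), and over all 12 alternatives the adjusted p lay between 0.0302 and 0.215. Between the subsets Hpgds was lower in CD8+ DCs, by -1.87 ± 0.19 in WT (3.65-fold, adjusted p = 5.41e-07) and by -1.13 ± 0.19 in Mst1/2-KO mice (adjusted p = 0.000183).

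Ptges, the inducible synthase of prostaglandin E2, varied little, between 3.95 and 4.62 over the 16 sorted arrays and between 4.00 and 4.45 over the 7 total DC arrays. Its Mst1/2-KO minus WT difference was 0.03 ± 0.12 in CD8+ DCs (interval -0.21 to 0.28, adjusted p = 0.961), 0.03 ± 0.12 in CD8- DCs and -0.11 ± 0.12 in total DCs (interval -0.37 to 0.16, adjusted p = 0.777). The CD8+ minus CD8- difference was 0.10 ± 0.12 in WT (adjusted p = 0.663) and 0.10 ± 0.12 in Mst1/2-KO mice (adjusted p = 0.669). The deposited values carry no detection call, so whether this signal lay above background is not known.

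**Figure D3:**
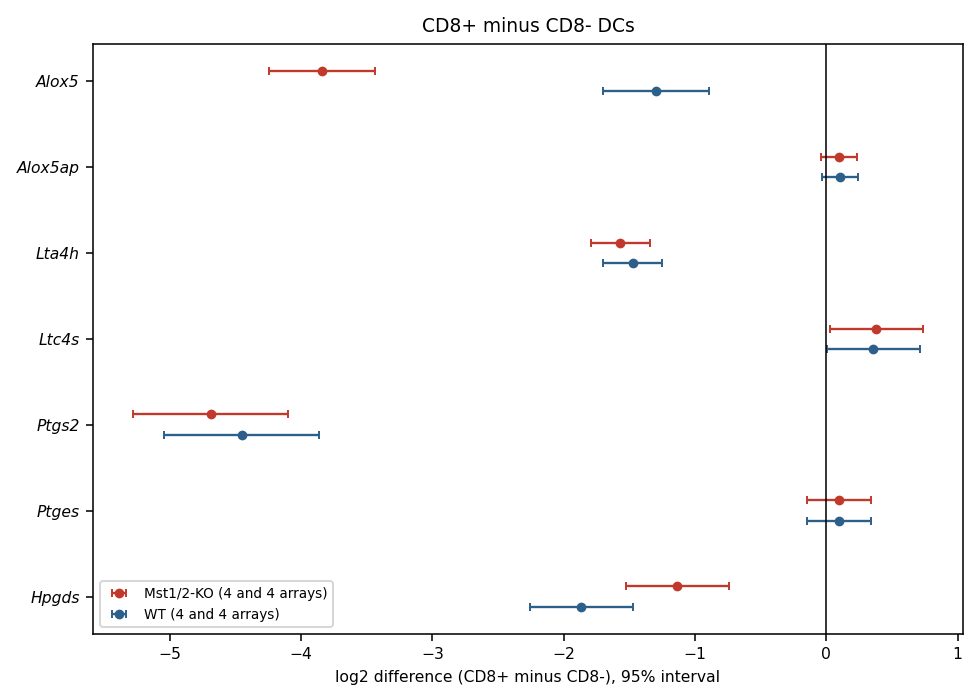
CD8+ minus CD8- log2 difference of each enzyme (horizontal axis) in Mst1/2-KO (red, upper of each pair) and WT mice (blue), from the model of the 16 sorted arrays, with 95% intervals. Ptgs2 lies furthest left in both genotypes at -4.69 and -4.45, Lta4h and Hpgds are lower in CD8+ DCs in both, and Alox5, which was chosen from part of these arrays, lies at -3.84 and -1.30.

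Alox5 was chosen from part of the sorted arrays and is left out of the counts between the subsets. In WT mice 3 of the other 6 members (Ptgs2, Hpgds and Lta4h) were lower in CD8+ than in CD8- DCs by the test and none was higher, where 21% of all 22180 genes were called and 10% were called lower. In Mst1/2-KO mice the same 3 of 6 were lower, where 19.2% of all genes were called and 9.3% called lower. The median difference of these 6 was -0.69 in WT, against 0.03 over all genes, and -0.52 against 0.03 in Mst1/2-KO mice. Alox5 itself, as a description, differed by -1.30 ± 0.19 in WT and by -3.84 ± 0.19 (14.3-fold) in Mst1/2-KO mice. Markers of other cells also separated the subsets: 11 of 13 macrophage and monocyte markers were lower in WT CD8+ DCs, at a mean of 6.83 (6.64 to 6.99) against 8.05 (7.79 to 8.21) in WT CD8- DCs, as were 6 of 6 T cell markers, at 4.63 (4.56 to 4.73) in WT CD8+ against 5.73 (5.31 to 6.15) in WT CD8- DCs. Of 8 NK cell markers 6 were lower, at a mean of 4.79 (4.72 to 4.84) in WT CD8+ against 6.09 (5.85 to 6.65) in WT CD8- DCs. Mast cells and basophils make much of both mediator classes. The mean of their 10 markers was 4.04 (3.99 to 4.09) in WT CD8+ and 4.13 (4.12 to 4.14) in WT CD8- DCs, with 2 of 10 lower in CD8+ DCs. In Mst1/2-KO CD8- DCs it was 3.98 (3.89 to 4.09). Against WT CD8- DCs 2 of the 10 lay past the threshold downward, beside 6.68% of all genes past it in either direction. The part of all these cells in the differences was not tested.

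Between genotypes, none of the 7 members was called in CD8+ DCs by limma, where 0.888% of all genes were called. An unadjusted p under 0.05 was found there for 2 of the 7 members (Ptgs2 and Hpgds), beside 2345 of all 22180 genes. CD8- DCs get no test, since Alox5 was chosen there: 2 of 7 (Alox5 higher, Hpgds lower) lay past the threshold used elsewhere, beside 6.68% of all genes, and 4 of 7 did not overlap, beside 12% of all genes, and nothing is read from these counts. In total DCs Alox5 passed (higher) without overlap, but it is left out of the counts because of how it was chosen. Of the other 6 members 1 passed (Ptgs2, lower), beside 0.848% of all genes. The genotypes did not overlap in 3 of these 6, beside 13.8% of all genes. Without Alox5, the member differences had medians of -0.05 in CD8+ and -0.14 in total DCs, against medians over all genes of 0.005 and 0.003. Alox5 was higher in total DCs and not in CD8+ DCs, and its rise in CD8- DCs is the one it was chosen for. Ptgs2 and Hpgds were lower in all 3 preparations by their values.

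**Figure D4:**
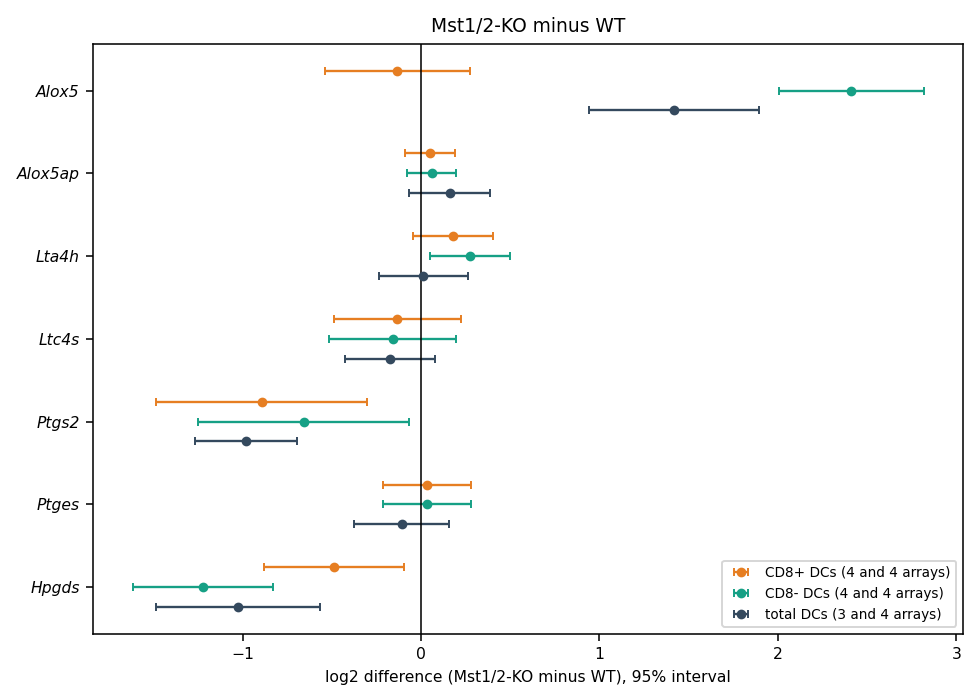
Mst1/2-KO minus WT log2 difference of each enzyme (horizontal axis) in CD8+ DCs (orange), CD8- DCs (green) and total DCs (dark blue), with 95% intervals. Alox5 lies at -0.13, 2.41 and 1.42 for CD8+, CD8- and total DCs, Ptgs2 and Hpgds lie below 0 in all 3, and Alox5ap, Ltc4s and Ptges lie no more than 0.17 from 0.

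Over the 16 sorted arrays the genes most like Alox5 were Cd300lg (r = 0.980), Plxdc2 (0.979), Pros1 (0.979), Rasgrp2 (0.978) and Ltb4r1 (0.977). These correlations are descriptions over arrays that form 4 groups, one of which is far above the rest. Over the 7 total DC arrays the same genes had an r of 0.873, 0.770, 0.894, 0.909 and 0.703 with Alox5. Ptgs2 was most like Trps1 (r = 0.992 over sorted and 0.879 over total arrays) and Apobec1 (0.987 and 0.982), and Hpgds most like Elmo1 (0.965 and 0.605) and Mical3 (0.965 and 0.897). The nearest patterns to Lta4h were Cd33 (0.983 and 0.358) and Ptpn6 (0.982 and 0.718). Alox5ap, Ltc4s and Ptges varied little, and their nearest genes in the sorted cells had an r of 0.920 (Uba6), 0.856 (Rnf146) and 0.908 (Tmem108), with 0.425, -0.133 and 0.489 in total DCs. Among the members themselves, Ptgs2 and Hpgds ran together in both sets (r = 0.866 and 0.918), whereas Alox5 and Ptgs2 had an r of 0.743 over the sorted arrays and -0.846 over the total arrays.

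Of 58 other genes of arachidonic acid metabolism and its receptors, 53 were measured. In total DCs, where 0.848% of all genes were called, 1 of the 53 was higher in Mst1/2-KO arrays and none lower. It was Mgst3, a microsomal glutathione transferase that can make leukotriene C4, at 5.64 ± 0.09 in Mst1/2-KO and 5.03 ± 0.14 in WT arrays (SD, n = 3 and 4; difference 0.61 ± 0.11 SE, adjusted p = 0.0366), and the next smallest p was that of the phospholipase Pla2g4f (-1.10 ± 0.21, adjusted p = 0.0516). In CD8- DCs 7 lay past the threshold upward and 2 downward, beside 6.68% of all genes, and nothing is read from these counts. The 4 largest differences, described without a test, included both a leukotriene B4 and a cysteinyl leukotriene receptor. Ltb4r1 averaged 7.29 ± 0.16 in Mst1/2-KO and 5.66 ± 0.15 in WT CD8- DCs, and Cysltr1 6.03 ± 0.24 and 4.39 ± 0.20 (SD, n = 4 each). Mgst3 differed by 1.07 ± 0.15 and the secreted phospholipase Pla2g2d by 0.97 ± 0.25. In CD8+ DCs none of the 53 passed the limma threshold, beside 0.888% of all genes. An unadjusted p under 0.05 was found for 8 of the 53, beside 2345 of all 22180 genes. The smallest p-values were those of the phospholipase Pla2g4c (0.32 ± 0.08, adjusted p = 0.0902) and of Cotl1, an actin-binding protein that binds 5-lipoxygenase (0.22 ± 0.08, adjusted p = 0.258).

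Between the subsets, 8 of the 53 pathway genes were higher and 12 lower in CD8+ than in CD8- DCs of WT mice, where 21% of all genes were called. Of the 12 receptors among them, 2 were higher and 3 lower in WT mice, and 1 was higher and 5 lower in Mst1/2-KO mice. Ptger3 and Ptger2, receptors of prostaglandin E2, went opposite ways: Ptger3 averaged 4.30 ± 0.24 in CD8+ and 7.29 ± 0.43 in CD8- DCs (difference -2.98 ± 0.19, adjusted p = 2.16e-09), and Ptger2 5.61 ± 0.31 and 3.54 ± 0.07 (2.07 ± 0.13, adjusted p = 1.2e-09; SD, n = 4 each). Fpr2, a receptor of lipoxins and formyl peptides, differed by -1.90 ± 0.22 (adjusted p = 3.88e-06), and Ggt5, which converts leukotriene C4 to leukotriene D4, by -1.89 ± 0.17 (adjusted p = 1.2e-07). In Mst1/2-KO mice 8 of the 53 were higher and 16 lower in CD8+ DCs, where 19.2% of all genes were called. The largest of these differences was that of Ltb4r1, with 4.68 ± 0.15 in CD8+ and 7.29 ± 0.16 in CD8- DCs (-2.61 ± 0.13, adjusted p = 1.29e-10), followed by Ptger3 (-2.39, adjusted p = 4.42e-08), Ptger2 (1.81, adjusted p = 7.73e-09) and the thromboxane synthase Tbxas1 (1.43 ± 0.16, adjusted p = 3.08e-06). The phospholipase Pla2g4a, which frees the arachidonic acid and was looked up after its values were seen, was lower in WT CD8+ DCs by 1.49 on the log2 scale (5.94 ± 0.06 in CD8+ and 7.43 ± 0.15 in CD8- DCs, adjusted p = 6.19e-09). Among the 10 measured genes listed for arachidonic acid release it was the only 1 called lower, while 2 were called higher. Their median difference was 0.01 and the highest 0.92.

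In experiment 1, where Mapk14 signal did not show the deletion, none of the 7 members was called between the arrays labelled Rag1-KO p38-KO and the Rag1-KO arrays, all with anti-CD40, beside 0% of all genes called by limma, although 1866 genes had an unadjusted p under 0.05. Alox5 was 6.65, 6.65 and 6.02 in the arrays labelled Rag1-KO p38-KO, against 6.95, 6.65, 6.96 and 6.65 in Rag1-KO DCs (difference -0.36 ± 0.18, interval -0.79 to 0.07, adjusted p = 0.605). Alox5ap was the only member with an unadjusted p under 0.05: it was 11.09, 11.25 and 11.08 in the arrays labelled Rag1-KO p38-KO, against 10.92, 10.93, 10.64 and 10.73 in Rag1-KO DCs, without overlap (0.34 ± 0.09, adjusted p = 0.464). Non-overlap was seen in 7.48% of all genes. Ptgs2 was 9.88, 9.66 and 9.88 in the arrays labelled Rag1-KO p38-KO, against 10.21, 10.37, 9.82 and 9.61 in Rag1-KO DCs (-0.19 ± 0.19, interval -0.64 to 0.25, adjusted p = 0.753). Hpgds differed by 0.15 ± 0.28 (adjusted p = 0.879), Lta4h by 0.22 ± 0.15 (0.671), Ltc4s by 0.14 ± 0.16 (0.792) and Ptges by 0.00 ± 0.04 (0.995). None of the 53 pathway genes passed either, 8 had an unadjusted p under 0.05, and the smallest p-values were those of Ptger4 (-0.50 ± 0.09, adjusted p = 0.344) and Cysltr1 (0.69 ± 0.22, adjusted p = 0.553). The mean of 10 neutrophil markers was 4.85 (3.98 to 5.44) in the arrays labelled Rag1-KO p38-KO, against 6.15 (5.78 to 6.81) in Rag1-KO arrays. No gene was called here, so none of the 10 was. None of their differences lay above 0 (median -1.205), 6 had an unadjusted p under 0.05, and 5 did not overlap. The mean of 13 macrophage and monocyte markers was 7.14 (6.98 to 7.38), against 7.69 (7.23 to 8.17), with 3 differences above 0. The part of these cells in the members' values was not tested.

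Experiment 2 set 2 arrays against 1, so its tests borrow their spread from both experiments (11 arrays), and the single array of a group is taken to vary as much as the rest. Ptgs2 was 10.03 and 10.24 in Rag1-KO DCs stimulated with anti-CD40, against 9.49 in the array without stimulation, a difference of 0.64 ± 0.28 (interval 0.01 to 1.28, adjusted p = 0.371). Alox5 was 6.59 and 7.10 with anti-CD40, on either side of the 6.83 without (0.02 ± 0.30, adjusted p = 0.988). Hpgds was 6.78 and 6.83 with anti-CD40, against 7.11 without stimulation (-0.31 ± 0.40, adjusted p = 0.809). None of the 7 members was called for stimulation, beside 0.0361% of all genes. Set against the 1 stimulated WT array, the stimulated Rag1-KO arrays gave no member called, beside 0.365% of all genes, and none with an unadjusted p under 0.05. Alox5 was 6.40 in that WT array (0.45 ± 0.30, adjusted p = 0.565) and Ptgs2 10.30 (-0.16 ± 0.28, adjusted p = 0.848). The mean of 10 neutrophil markers was 7.03 (6.79 to 7.27) in the stimulated Rag1-KO arrays, against 5.89 in the array without stimulation and 5.23 in the WT array, with 9 and 10 of 10 differences above 0 and none called. That of 8 NK cell markers was 6.09 (6.02 to 6.15), against 5.83 without stimulation and 4.89 in WT, with none called. Of 9 B cell markers 3 (Cd79a, Fcer2a and Ms4a1) and of 6 T cell markers 1 (Cd3e) were lower in Rag1-KO than in WT, and the part of these cells in the members' values was not tested. Of the other pathway genes, none was called in either comparison; the smallest p-values were those of Pla2g6 (0.35, adjusted p = 0.294) and Ltb4r1 (-0.36, adjusted p = 0.464) for stimulation, and of Pla2g2d (-0.81, adjusted p = 0.116) and the 12-lipoxygenase Alox12 (-0.46, adjusted p = 0.153) for Rag1-KO against WT.

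**Figure D5:**
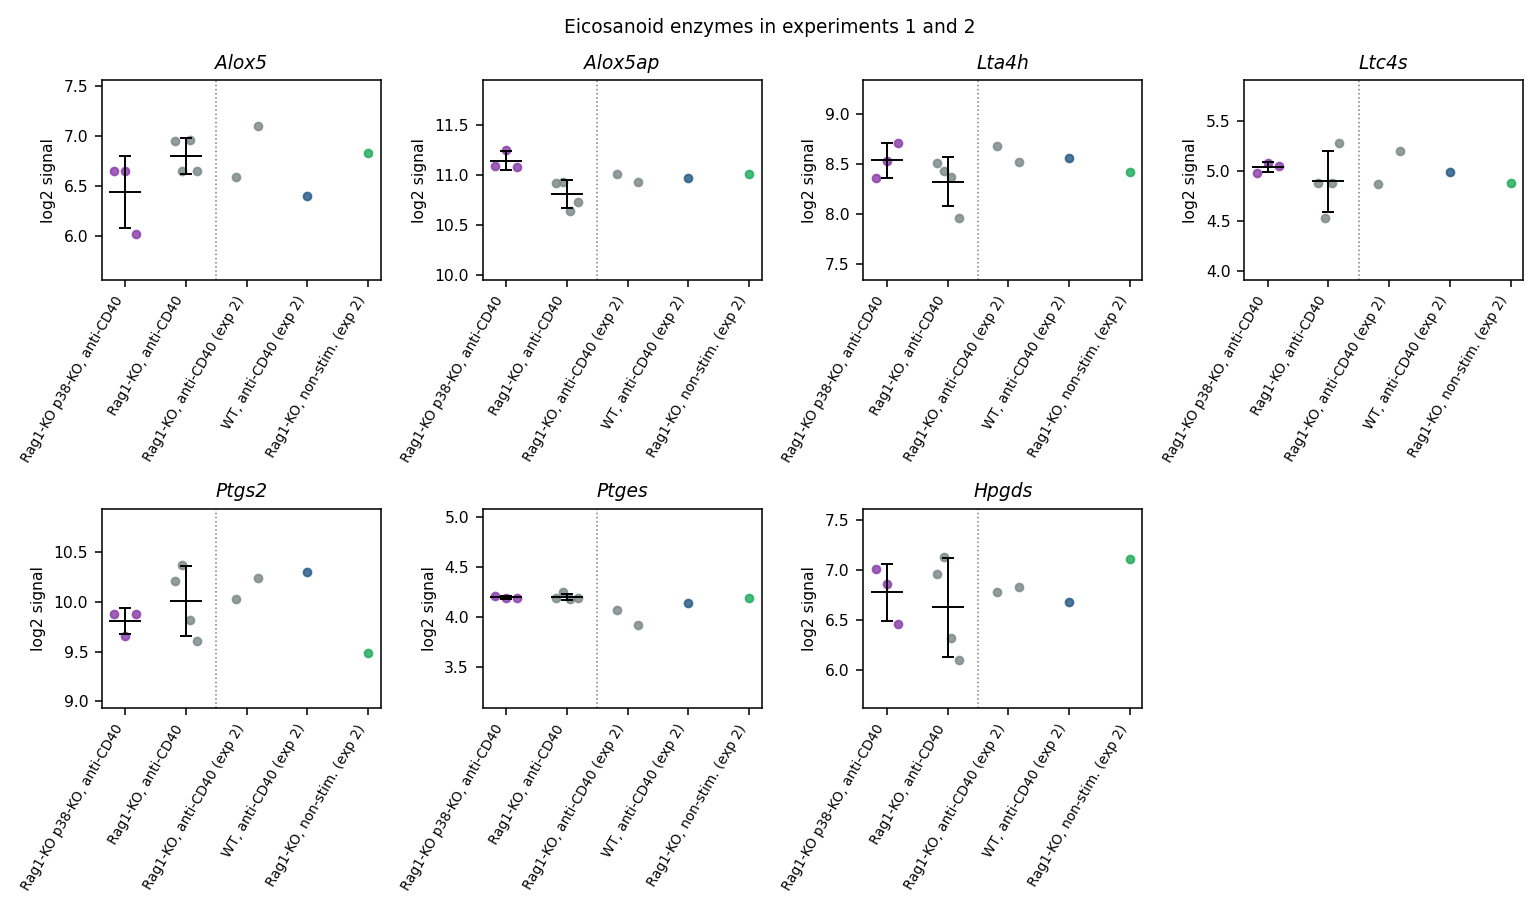
Log2 signal of the 7 measured enzymes (vertical axis, own scale per gene) in experiments 1 and 2, one point per array, with bars for mean and SD where a group has 3 or more arrays; the dotted line parts the experiments, whose levels are not comparable. The Alox5ap signals of the arrays labelled Rag1-KO p38-KO (11.08 to 11.25) lie above the Rag1-KO arrays (10.64 to 10.93), and the Ptgs2 signal without stimulation (9.49) lies below both Rag1-KO arrays with anti-CD40.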

How the data were processed

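RNA of sorted dendritic cells was amplified and biotin-labelled for Affymetrix Mouse Gene 2.0 ST arrays. The table deposited by the authors holds 41155 probe sets on 34 arrays as log2 values (0.572 to 13.19), normalized by the authors; RMA and Partek 6.6 are named in the submitters' processing notes, and 0 array columns were left out. Digits beyond the 5th decimal were shared within an experiment label for 98.4% to 99.3% of probe sets and across labels for 0.00972%, so the values carry an added constant per probe set and label.

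Probe sets with exactly 1 gene symbol were kept, the one with the highest mean per gene, which gave 22180 genes. Each comparison is a contrast of group means from limma 3.58.1 (R 4.3.3, lmFit, then eBayes) over all genes. Simulated data were used to try the fit for Mst1/2-KO against WT in CD8+ and in total DCs and for experiment 1 only. A gene was called where its p, adjusted after Benjamini-Hochberg, was below 0.05. One fit held the 16 sorted arrays, another the 7 total DC arrays and another the 7 of experiment 1, and experiment 2 pooled its spread with experiment 1. The number of arrays limits the precision.

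Named were all members and, per comparison, up to 4 called pathway genes with the largest difference, or the 2 with the smallest p. The likeness rule took the 5 genes with the highest r to Alox5 and the 2 highest for each other member. The members and lists were chosen with earlier results of these data known.

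Arrays of one replicate number were taken as pairs where every pair's deviations from the group means correlated above 0.1. By this cutoff it held between WT CD8+ and CD8- arrays (0.13 to 0.34) only. In the mice lacking the Hippo kinases, the CD8+ and CD8- arrays gave 0.09 to 0.21. They missed the cutoff by replicate 3 (0.09) alone. The array of the same number was the best match in 4 of 4 replicates there, as in WT. The mean of Xist and 3 Y-linked genes also ran alike over the replicates there. In order it was 5.137, 5.347, 4.871 and 5.555 in CD8+ arrays, against 5.087, 5.405, 4.927 and 5.455 in CD8- arrays. These arrays may therefore well be pairs too, although they missed the cutoff. The main fit of the sorted arrays held no replicate block, which was tried as an alternative only. Its p-values between the subsets therefore treat the arrays as unpaired.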

Additional observations from a re-analysis of the deposited data

Results flagged for a closer look

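Of 42 combinations of a member and a group of 4 arrays, 3 held an array far from the other 3 by Dixon's gap test, or 7.14%, where chance gives about 5%. Alox5 was 5.28 in replicate 4 of the WT CD8+ DCs, against 5.46 to 5.50 in the other replicates. Alox5ap was 10.87 in replicate 1 of the WT CD8+ DCs, against 11.004 to 11.009 in the others. Ltc4s was 4.53 in replicate 1 of the WT CD8- DCs, against 4.96 in each of the others. Leaving each of these arrays out changed no call of the member concerned. No member moved one way in every array of one subset and the other way in every array of another.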

How the results depend on the processing

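No member difference that had passed changed direction under any alternative (quantile normalization, the mean of a gene's probe sets, genes above the median gene only, a trended and robust variance prior, a fit to only the arrays compared, the replicate as a block, and each array left out). Outside total DCs, single calls changed in 3 places, 2 of them for Ltc4s as given with its values. In CD8- DCs, where members are a description, 3 of 7 instead of 2 lay past the threshold with the replicate block, with only the 8 arrays compared, and with both. With a replicate block, Ptgs2 in CD8+ DCs passed (adjusted p = 0.0202), so 1 member was called there instead of 0; the block over only the 8 arrays, also chosen after seeing the data, called 103 genes, against 197 in all. The numbers do not pair these arrays (correlation of deviations -0.07 to 0.09 in CD8+, 0.01 to 0.09 in CD8- and 0.05 to 0.13 in total DCs). In total DCs the replicate block ended the Alox5 call (adjusted p = 0.0797) and brought in Hpgds (0.0435), with 108 genes called against 188. Counts over all genes moved further under other settings. They were 123 in CD8+ DCs with only the 8 arrays compared, 984 against 1482 in CD8- DCs with the block over 8 arrays, and 296 (genes above the median) and 340 (trended and robust prior) in total DCs. For anti-CD40 they were 1 (genes above the median) and 17 (trended and robust prior) against 8, and for Rag1-KO against WT 4 against 81 with genes above the median. Leaving out each array gave 114 to 209 genes in CD8+ DCs, 918 to 1533 in CD8- DCs, 79 to 259 (124 in all) for the difference of effects, and 39 to 169 genes with 0 to 2 members in total DCs; the cause was not tested. In experiment 2, leaving out each of the 2 stimulated Rag1-KO arrays was chosen after seeing the data and sets 1 array against 1, each taken to vary like the other groups. No member was called then. Without replicate 1, 39 genes were called for anti-CD40 and 195 for Rag1-KO against WT, and without replicate 3, 136 and 234. With no detection call, how far the signals of Ptges and Ltc4s stand above background is not known.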
